A study of Mus musculus with 721 samples.

Results

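The 40 genes described here encode proteins that drive a cell through mitosis. The list was chosen with earlier results of these data known. Its genes were taken from the count table by symbol, without a filter on their values, and make up 40 of its 24483 genes. 39 were found under the symbol used here, and Knstrn under its older symbol D2Ertd750e. The mitotic cyclins Ccna2, Ccnb1 and Ccnb2, the kinase Cdk1 with its subunit Cks2 and its activating phosphatases Cdc25b and Cdc25c form the group that starts mitosis. Plk1, Aurka and Nek2 are further mitotic kinases, and Cdc20 and Ube2c are partners of the anaphase-promoting complex. Bub1, Bub1b, Bub3, Mad2l1 and Ttk belong to the spindle checkpoint, and Aurkb, Birc5 and Incenp to the chromosomal passenger complex. Cenpa, Cenpe, Cenpf, Ndc80, Nuf2 and Knstrn work at the centromere and kinetochore. Tpx2, Kif11, Kif2c, Nusap1, Hmmr and Ckap2 build the spindle, and Prc1, Kif20a, Kif20b, Kif23, Anln and Ect2 act at the central spindle and in cytokinesis. Top2a untangles DNA, and Depdc1a is counted here with it as the last of the 40.

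As background, cyclin B bound to Cdk1 drives entry into mitosis, kinetochores attach chromosomes to the spindle, and the spindle checkpoint holds Cdc20 back until every kinetochore is attached. The anaphase-promoting complex then marks cyclins for destruction, with Ube2c as a ubiquitin carrier. Most of these mRNAs are highest in G2 phase and mitosis and fall afterwards. A mean over dividing cells can therefore depend, among other things, on how many of them are late in the cycle. Epiblast cells of the early mouse embryo divide fast around gastrulation.

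The cells came from wild-type C57Bl/6Babr embryos, without any treatment, at 4 stages named by days after mating, from E3.5 through E4.5 and E5.5 to E6.5. At E3.5 and E4.5 the trophectoderm, the outer layer of the blastocyst, had been lysed by immunosurgery and the inner cell mass (ICM) was taken apart, at E5.5 the epiblast was separated from the visceral endoderm (VE), and at E6.5 the embryonic portion was dissociated. 721 picked cells passed the study's filters. E3.5 gave 99 of them, of which 9 carry no embryo number and were counted together as 1 of 10 embryos. 5 embryos were used at E4.5 and 9 at E5.5. The 250 cells of E6.5 came from 13 embryos, 2 of them titled E6.75.

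Cells were clustered without the 40 genes, without 86 other mitosis genes and 29 S phase genes, and without T. Named by fixed markers, 76 E4.5 cells were primitive endoderm (PrE)-like, with median endoderm and epiblast marker levels of 7.24 and 3.41 on the log2(CPM + 1) scale (CPM, a gene's count scaled by the total of its cell). The other 29 E4.5 cells were epiblast-like, at 2.05 and 6.25. Epiblast-like cells numbered 260 at E5.5 (1.35 and 5.23), beside 7 of endoderm type. The E6.5 cells comprised 85 and 89 in a pair of clusters of epiblast type (together 2.95 and 4.82), 42 endoderm-like (6.01 and 3.2) and 23 primitive streak-like, and 11 cells (4.4% of the stage, from 4 embryos) stayed unnamed under a threshold set after seeing the clusters. All 23 streak-like cells came from 1 embryo. Trophoblast markers had medians of at most 1.55 in every class. The study had left out cells expressing trophoblast markers beforehand, so these medians are no separate check. The total count of a cell lay between 66896 and 3792936, with a median of 692863, and no pair of cells had identical counts (0 repeated columns).

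The embryo was the replicate. For each embryo and class with at least 3 cells the raw counts were added up, over 3 to 28 cells at E3.5, 4 to 7 in the E4.5 epiblast, 17 to 45 at E5.5 and 3 to 54 at E6.5, and values of single genes are CPM of these sums after TMM scaling, which evens out differences in RNA composition. Differences are log2 fold changes ± SE from edgeR's quasi-likelihood test, and a gene was called at a Benjamini-Hochberg adjusted p of at most 0.05 over all genes tested. In a sum over cells, more cells in mitosis and more mRNA per cell cannot be told apart. The labels do not say whether a plate name that recurs at another stage marks the same plate, so plate and stage cannot be told apart either.

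The promoters of the mitosis genes share sequence features that played no part in their choice. In the RefSeq promoter table of GRCm38.p6, with 250 bases before and 50 after each start, 34 of the 40 had an entry, and Cdc25c, Tpx2, Aurkb, Kif20a, Incenp and Ccna2 had none. The letters CCAAT, the site of the NF-Y factor, were searched on both strands, and so was the cell-cycle genes homology region (CHR), the site of the MuvB complex, with the letters TTTGAA and, as a variant, TTCGAA, in either direction. CCAAT was found in 25 of 34 promoters (73.5%), against 41.1% of all 27025 genes in the table, and at least 2 copies in 16 (47.1%), against 13.3%. The CHR letters were found in 25 of 34 (73.5%), against 21.7% of all genes, and began within 50 bases of the start in 23 (67.6%), against 6.12%. Both occurred together in 21 members (61.8%) and in 8.61% of all genes. Among 69 other mitosis genes with an entry, 63.8% held CCAAT and 50.7% the CHR letters, and among 23 S phase genes 56.5% and 17.4%. A match is a run of letters, not a measured site.

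Windows of 130 bases before to 20 bases after the RefSeq start are printed for 7 of the genes named in the results. They run 5′ to 3′ in the direction of the gene, with CCAAT and CHR letters on either strand in capitals. No pair of matches overlapped in these windows. They lie in GRCm38 at chr10:69352893-69353042 (minus strand) for Cdk1, chr13:100786467-100786616 (minus strand) for Ccnb1, chr2:164769799-164769948 (plus strand) for Ube2c, chr1:189688067-189688216 (minus strand) for Cenpf, chr9:61946780-61946929 (minus strand) for Kif23, chr4:118437324-118437473 (minus strand) for Cdc20 and chr2:119618168-119618317 (plus strand) for Nusap1.
Cdk1: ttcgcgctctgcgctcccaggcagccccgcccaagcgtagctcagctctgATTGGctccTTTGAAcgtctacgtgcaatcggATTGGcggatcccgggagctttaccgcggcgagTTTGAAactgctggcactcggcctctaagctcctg
Ccnb1: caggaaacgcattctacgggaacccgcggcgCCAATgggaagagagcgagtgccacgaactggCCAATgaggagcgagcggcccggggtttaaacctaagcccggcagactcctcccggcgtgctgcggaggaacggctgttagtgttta
Ube2c: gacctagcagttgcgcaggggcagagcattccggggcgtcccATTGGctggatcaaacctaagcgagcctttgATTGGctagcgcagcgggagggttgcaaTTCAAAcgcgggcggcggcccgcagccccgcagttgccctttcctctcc
Cenpf: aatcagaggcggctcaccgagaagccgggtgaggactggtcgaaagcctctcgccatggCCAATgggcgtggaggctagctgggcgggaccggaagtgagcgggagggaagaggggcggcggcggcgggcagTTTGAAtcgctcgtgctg
Kif23: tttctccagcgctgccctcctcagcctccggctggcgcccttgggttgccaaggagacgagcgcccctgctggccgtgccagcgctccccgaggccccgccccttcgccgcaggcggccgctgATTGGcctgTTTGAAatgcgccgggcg
Cdc20: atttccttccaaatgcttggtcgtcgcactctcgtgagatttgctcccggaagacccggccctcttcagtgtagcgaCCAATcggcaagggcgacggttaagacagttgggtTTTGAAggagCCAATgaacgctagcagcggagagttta
Nusap1: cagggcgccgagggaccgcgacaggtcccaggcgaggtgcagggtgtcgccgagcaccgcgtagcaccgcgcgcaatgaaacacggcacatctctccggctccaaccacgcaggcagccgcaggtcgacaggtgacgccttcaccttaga
Cdk1 had 2 CCAAT and 2 CHR matches in this window, Ube2c and Cdc20 2 and 1, and Cenpf and Kif23 1 and 1. Ccnb1 had 2 CCAAT matches and no CHR letters, and Nusap1 neither.

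The mean level of the 40 genes went up, down and up over the stages. It was computed per cell as the mean log2(CPM + 1) over the 40, averaged per embryo, and is given as mean ± SD over embryos, with no test. The ICM cells of E3.5 stood at 5.01 ± 0.46 (n = 10). Epiblast-like cells stood at 5.90 ± 0.49 on E4.5 (n = 5), stood at 5.40 ± 0.17 a day later (n = 8) and were back at 5.90 ± 0.41 on E6.5 (n = 13). The group means differed by 0.90, -0.51 and 0.51 at the 3 steps, in order. Over all genes tested the same mean was 2.62, 2.87, 2.78 and 2.76 at the 4 stages. As a share of all counts the mitosis genes took, in stage order, 0.575%, 0.694%, 0.569% and 0.738%.

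The embryos overlapped between stages in this mean. The 5 E4.5 embryos stood at 6.14, 5.41, 6.41, 5.36 and 6.21, and E3.5 ranged from 4.31 to 5.70 with a median of 5.03. E5.5 embryos stayed close together, between 5.21 and 5.61. E6.5 embryos spread from 5.25 to 6.57, and those of plates P1 to P3 had a lower mean (5.72 ± 0.29, n = 9) than those without a plate name (6.32 ± 0.37, n = 4). Both embryos titled E6.75 had no plate name and gave 54 and 19 of the 84 cells of that group. Plate name and titled age can therefore hardly be told apart. The mean of all genes moved along, at 2.53 on the plates and 3.27 without a plate name. As a share of counts the mitosis genes went the other way, at 0.759% on the plates and 0.692% without a plate name. Of the 40 genes, a median of 30, 36, 34 and 37 had a count in a cell of these stages, in order.

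**Figure D1:**
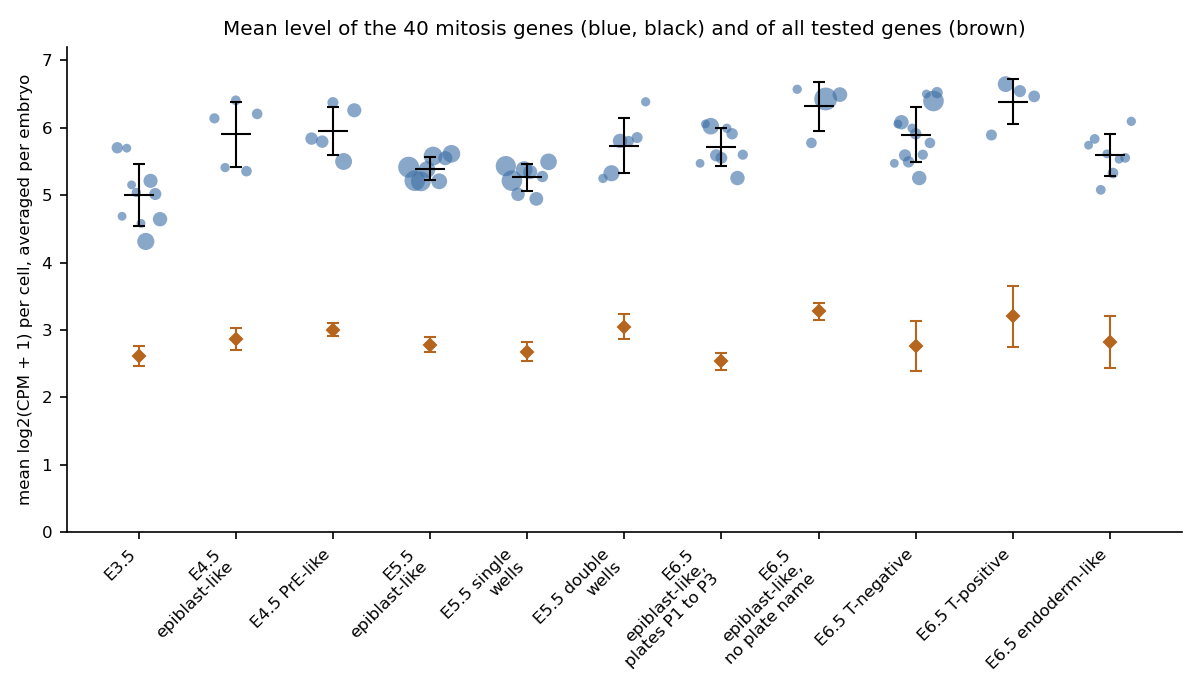
Mean log2(CPM + 1) per cell of the 40 mitosis genes (blue points, 1 per embryo, larger with more cells; black bars, mean ± SD over embryos) and of all tested genes (brown, mean ± SD), by class of cells. The mitosis genes average 5.01 at E3.5, 5.90 in the E4.5 epiblast and 5.40 in the E5.5 epiblast, and 5.72 and 6.32 in E6.5 epiblast-like cells with and without a plate name, while the means of all tested genes lie between 2.53 and 3.27.

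Between E3.5 ICM and E4.5 epiblast-like cells, 8 of the 40 mitosis genes were called higher and 0 lower (20% and 0%). Of all 13254 genes tested, 14.7% were called higher and 8.56% lower, so the share of members that rose was a little above the background. DESeq2 called 11 members, of which 3, named after their values were seen, were lower, namely Ccnb2 (-0.83), Cdc25c (-1.31) and Cenpa (-0.68), where edgeR gave -0.77, -1.27 and -0.65 without a call (adjusted p = 0.0806, 0.111 and 0.0812). The share of all genes called by DESeq2 is not given. In edgeR, Cenpa was also called lower without embryo 1 of plate P8 at E3.5 or embryo 1 of plate P1 at E4.5. Cdc25c was called lower without embryo 5 of plate P2 at E4.5, and Ccnb2 when E6.5 held only embryos without a plate name. The median log2 fold change over the 40 was 0.30, against 0 over all genes tested, and 27 of 40 were positive. Of the 86 other mitosis genes, 5 rose and 4 fell, and of the 29 S phase genes 7 rose and 2 fell.

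The clearest rise was that of Cenpf, a large kinetochore protein that appears in G2 phase. Its CPM in the E3.5 sums ranged from 21.4 to 129.4 with a median of 69.5, and the 5 E4.5 sums held 349, 305, 323.5, 196.15 and 329.5. The ranges did not overlap, and Cenpf was the only 1 of the 40 for which that held at this step. How many of all genes had separate ranges is not given, so this count has no background. The log2 fold change was 2.12 ± 0.29 (edgeR's quasi-likelihood test, adjusted p = 7.28e-07). Ttk, the checkpoint kinase also called Mps1, rose by 1.62 ± 0.43 (adjusted p = 0.0047), from a median of 20.2 CPM to 61.9.

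Among the genes of the dividing midzone, Ect2, the activator of RhoA in cytokinesis, rose by 1.42 ± 0.40 (adjusted p = 0.00786) and the kinesin Kif20b by 1.17 ± 0.35 (adjusted p = 0.0114). The Ect2 call was lost without embryo 5 of plate P2 at E4.5, which held 244.4 CPM while the other 4 lay between 97.9 and 124.2. Ube2c rose by 0.91 ± 0.27 (adjusted p = 0.0117) and Cks2 by 0.73 ± 0.24 (adjusted p = 0.0227). Cks2 was no longer called without embryo 1 or 2 of plate P1 or embryo 3 of plate P2 at E4.5.

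2 genes near 0 at E3.5 were also called. Depdc1a stood between 0 and 1.54 CPM in the E3.5 sums, with 4 of 10 at 0, and at 13.3, 13.7, 1.42, 10.7 and 17.5 in the E4.5 sums. Its fitted log2 fold change was 4.27 ± 0.90 (adjusted p = 0.000495). Cdc25b, the phosphatase that activates cyclin B bound to Cdk1, had no count in 9 of 10 E3.5 sums and 19 counts (2.03 CPM) in the sum of embryo 9 of plate P9. At E4.5 it held 25.5, 0, 10.2, 0 and 5.57 CPM. Its fitted log2 fold change of 5.07 ± 1.54 (adjusted p = 0.0139) is against a group nearly all at 0 and is no bound. It ranged from 3.40 to 9.61 over the other settings. The call was lost without embryo 1 of plate P1 at E4.5, with sums of at least 5 cells, and with cells titled single only.

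Of the group that starts mitosis, Cks2 and Cdc25b were called at this step, while Cdk1, Ccnb1, Ccnb2, Ccna2 and Cdc25c were not. The remaining genes named below were not called either. Cdk1 differed by 0.37 ± 0.28 (adjusted p = 0.381, 95% interval -0.18 to 0.91) and Ccnb1 by 0.35 ± 0.28 (adjusted p = 0.399). Plk1 stood at 0.14 ± 0.40, Aurka at -0.48 ± 0.34, Cdc20 at 0.47 ± 0.37, Bub1b at 0.38 ± 0.40, and Top2a at 0.43 ± 0.37. With sums of at least 5 cells Plk1 (0.96, adjusted p = 0.0476) and Top2a (1.06, adjusted p = 0.0206) were called higher. Birc5, also known as survivin, had a narrow interval around 0.05 ± 0.17 (-0.28 to 0.37), with medians of 439 and 443 CPM. Cenpe, Kif20a, Ccna2 and Knstrn stood at -0.15, -0.13, 0.26 and -0.72. For these genes a change as large as that of Cks2 lay inside many of the intervals, and not inside that of Birc5.

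**Figure D2:**
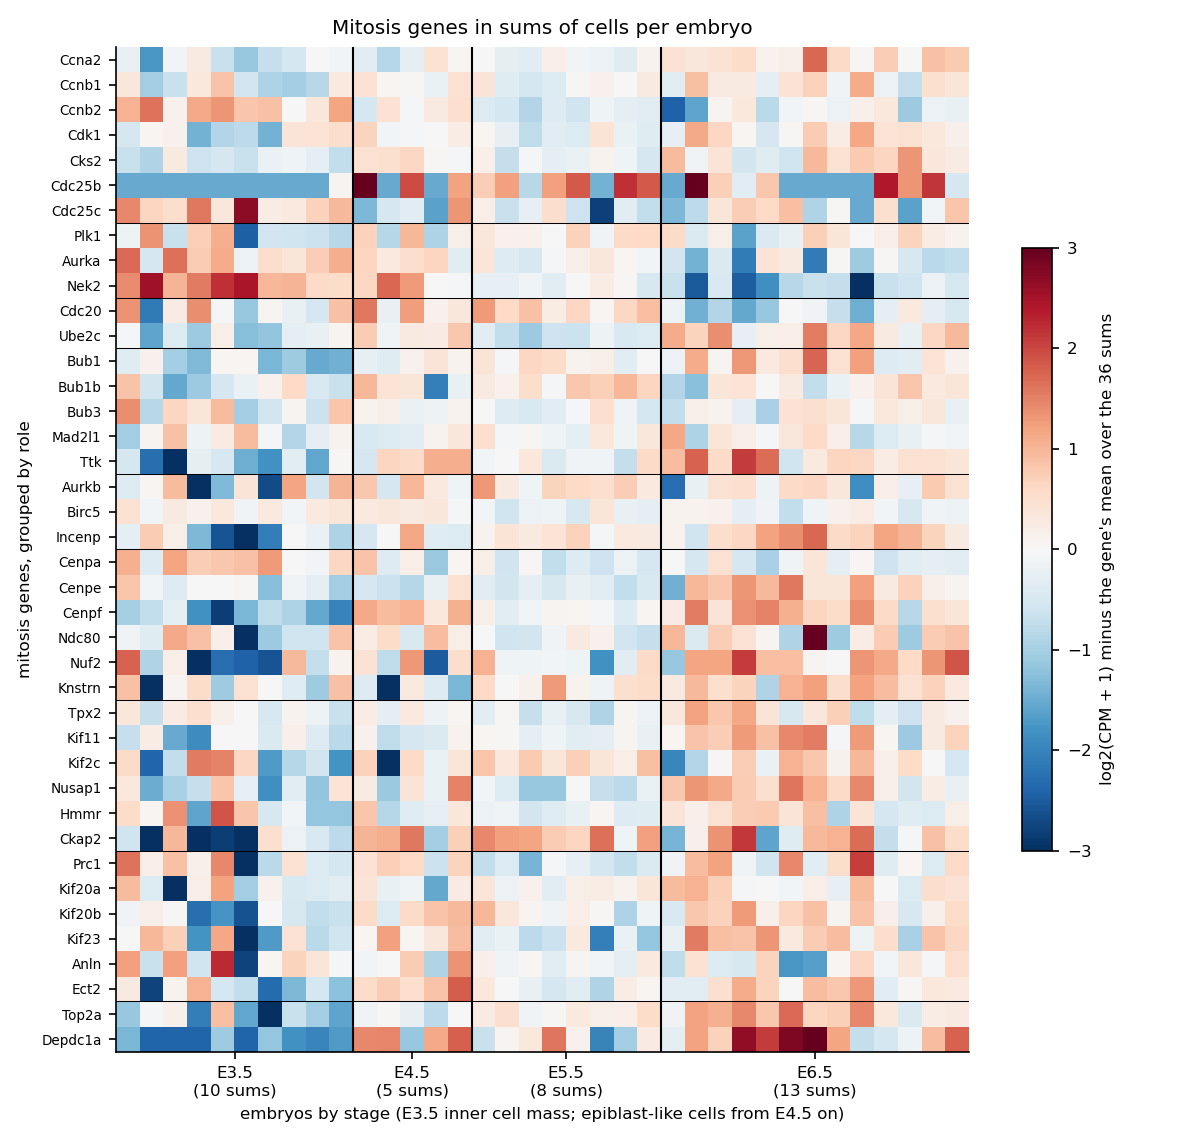
Each of the 40 mitosis genes (rows, grouped by role) in each of the 36 sums of cells (columns, by stage), as log2(CPM + 1) minus the mean of the gene over the 36 sums. Cenpf, Depdc1a and Cdc25b are low in nearly all E3.5 sums, Nek2 is high at E3.5 and low at E6.5, and Cdc20 is low in the E6.5 sums.

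From E4.5 to E5.5 the direction of the epiblast-like cells turned. 0 of the 40 genes were called higher and 2 lower (5%), against 3.92% and 3.17% of all genes (7.08% in either direction), a share near the background. Over the 40 the median log2 fold change was -0.33, while that over all genes was 0.14, and 27 of 40 were negative. Of the other mitosis genes 1 rose and 2 fell, and no S phase gene was called (0 of 29, with 9 at an unadjusted p under 0.05). Of all 13254 genes tested, 2726 had an unadjusted p under 0.05, and so had 7 of the 40 members.

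Ube2c fell from 608, 329, 429, 424 and 619 CPM in the 5 E4.5 sums to between 165.4 and 322 (median 245.7) in the 8 E5.5 sums, without overlap. The log2 fold change was -0.97 ± 0.28 (edgeR's quasi-likelihood test, adjusted p = 0.0282), and the call was lost without embryo 1 of plate P1 or embryo 5 of plate P2 at E4.5 or embryo 9 of plate P1 at E5.5. Cenpf fell by 0.99 ± 0.31 on the log2 scale, to between 120.7 and 178.8 CPM at E5.5, again without overlap. At an adjusted p of 0.0451 it was close to the limit, and leaving out any single embryo except embryo 4 of plate P2 at E4.5 ended the call. Ect2 also had ranges that did not overlap, at -1.12 ± 0.42, with an adjusted p of 0.0999. The share of all genes with separate ranges is not given here either. This step shares the E4.5 sums with the step before it, so a high value in these 5 sums enters both.

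The other named genes were not called. Ccnb1 differed by -0.21 ± 0.29, Cdk1 by -0.37 ± 0.29, Plk1 by 0.10 ± 0.42, Aurka by -0.38 ± 0.35, Cdc20 by -0.09 ± 0.39 and Bub1b by 0.35 ± 0.42. Birc5 stood at -0.43 ± 0.17 (adjusted p = 0.132), and DESeq2 called it lower (-0.48, adjusted p = 0.0231). Cenpe, Top2a, Kif20a, Ccna2 and Knstrn stood at -0.14, 0.44, 0.24, 0.03 and 1.12.

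From E5.5 to E6.5, in epiblast-like cells, 8 of the 40 genes were called higher and 1 lower (20% and 2.5%). Of all genes tested, 4.69% were called higher and 6.38% lower, so the share of members that rose was above that of all genes. Over the 40 its median was 0.44 on the log2 scale, against -0.01 over all genes, and 31 of 40 were positive. The other mitosis genes were called higher 3 times and lower 7 times. The S phase genes were called lower 6 times and higher 0 times. At an unadjusted p under 0.05 there were 29 of the 86 other mitosis genes and 13 of the 29 S phase genes. So were 16 of the 40 members and 3234 of all 13254 genes tested. For no member did the ranges of E5.5 and E6.5 separate, and the share over all genes is not given.

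Ube2c rose again, from a median of 245.7 CPM at E5.5 to 550 at E6.5 (298 to 1031). Its log2 fold change was 1.28 ± 0.24 (adjusted p = 0.000241), and all 13 E6.5 sums lay above the E5.5 median. Ube2c therefore passed the test at all 3 steps, up, down and up, as did Cenpf, which went from a median of 156.8 CPM to 237.04 (88.008 to 459) with a log2 fold change of 0.90 ± 0.26 (adjusted p = 0.0171). No other of the 40 passed at all 3. The E5.5 sums enter both the second and the third step, so a low value in them enters both. The share of all genes that passed at all 3 steps is not given. Cks2 passed at the first and the last step.

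The spindle gene Nusap1, which bundles microtubules near chromosomes, rose by 1.32 ± 0.35 (adjusted p = 0.0103). It stood between 25.9 and 57.4 CPM at E5.5 and between 39.6 and 178.7 at E6.5. Cenpe, a kinesin that carries chromosomes to the spindle equator, rose by 1.15 ± 0.27 (adjusted p = 0.00329), from 88.4 ± 10.007 to 195.9 ± 84.2 CPM (SD). Kif11, the motor that pushes spindle poles apart, rose by 0.90 ± 0.28 (adjusted p = 0.0306), from a median of 82.1 to 153.4 CPM.

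Kif23, a central spindle kinesin, rose by 1.21 ± 0.41 (adjusted p = 0.0472), and 16 of 21 fits that left out 1 embryo lost this call. Ccna2, the A-type cyclin, rose by 0.70 ± 0.22 (adjusted p = 0.0298), with all 13 E6.5 sums above the E5.5 median, and 5 of 21 such fits lost it. For Kif11, 7 of 21 did. Without embryo 7 of plate P3, 5 members were called instead of 9, and the share of all genes called there is not given. Cks2 rose by 0.64 ± 0.21 (adjusted p = 0.0361) and is named after its value was seen, being the smallest of the 8.

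Cdc20 went the other way. It fell by 1.21 ± 0.30 on the log2 scale (adjusted p = 0.00536), from between 274 and 638 CPM at E5.5 (median 405) to between 90.9 and 324 at E6.5 (median 187.3). All 13 E6.5 sums lay below the E5.5 median. Cdc20 and Ube2c thus went in opposite directions at this step. Both serve the anaphase-promoting complex and both have CCAAT and CHR letters in the windows printed above. A link of these letters to the change in level was not tested. Nek2 stood at -0.84 ± 0.39 (adjusted p = 0.163), Aurka at -0.52 ± 0.27 (adjusted p = 0.239) and Plk1 at -0.20 ± 0.33, and none of these kinases was called.

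The remaining named genes were not called. Cdk1 stood at 0.62 ± 0.24 (adjusted p = 0.0815, 95% interval 0.16 to 1.08) and Top2a at 0.60 ± 0.31 (adjusted p = 0.235). Cdk1 was called higher with DESeq2 (adjusted p = 0.0392), with sums of at least 1 cell (0.0428), with thinned counts (0.0484) and without embryo 3 of plates P7, P4 and P5 at E5.5 (0.049). Ccnb1 stood at 0.34 ± 0.23, Birc5 at 0.10 ± 0.14, Bub1b at -0.45 ± 0.33, Kif20a at 0.26 ± 0.31 and Knstrn at 0.25 ± 0.48. By role, 2 of 6 kinetochore genes, 2 of 6 spindle genes, 2 of 7 genes of the cyclin group and 1 of 6 cytokinesis genes rose, and none of the 5 checkpoint or 3 passenger complex genes was called. Of the 40, 26 were called at none of the 3 steps. The share of all genes called at none is not given, so this count has no background. Per step, 23.2%, 7.08% and 11.1% of all genes were called in either direction.

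Within the E6.5 batches the calls differed. With only the 9 embryos of plates P1 to P3, 9 members were called (8 higher and 1 lower), with log2 fold changes of 1.37 for Ube2c, 1.58 for Nusap1 and -1.42 for Cdc20. They were not the same 9, since Ccna2 (0.67, adjusted p = 0.0514) and Cks2 (0.51, adjusted p = 0.106) lost the call, and Prc1 (1.35, adjusted p = 0.0467) and Tpx2 (0.84, adjusted p = 0.0163), named after their values were seen, gained one. Without the E6.75 cells Ccna2 and Kif23 were not called. With only the 4 embryos without a plate name, 1 member (Cks2) was called. The shares of all genes called in these fits with fewer embryos are not given, so these counts of members have no background. Ube2c then stood at 1.01 (adjusted p = 0.0563), Cdc20 at -0.84 (adjusted p = 0.479), Nusap1 at 0.45, Cenpf at 0.30 and Kif11 at 0.23. Each of the 8 genes named by the rule kept its sign in both batches. The part of the plates, or of the titled age, in these results was not tested.

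**Figure D3:**
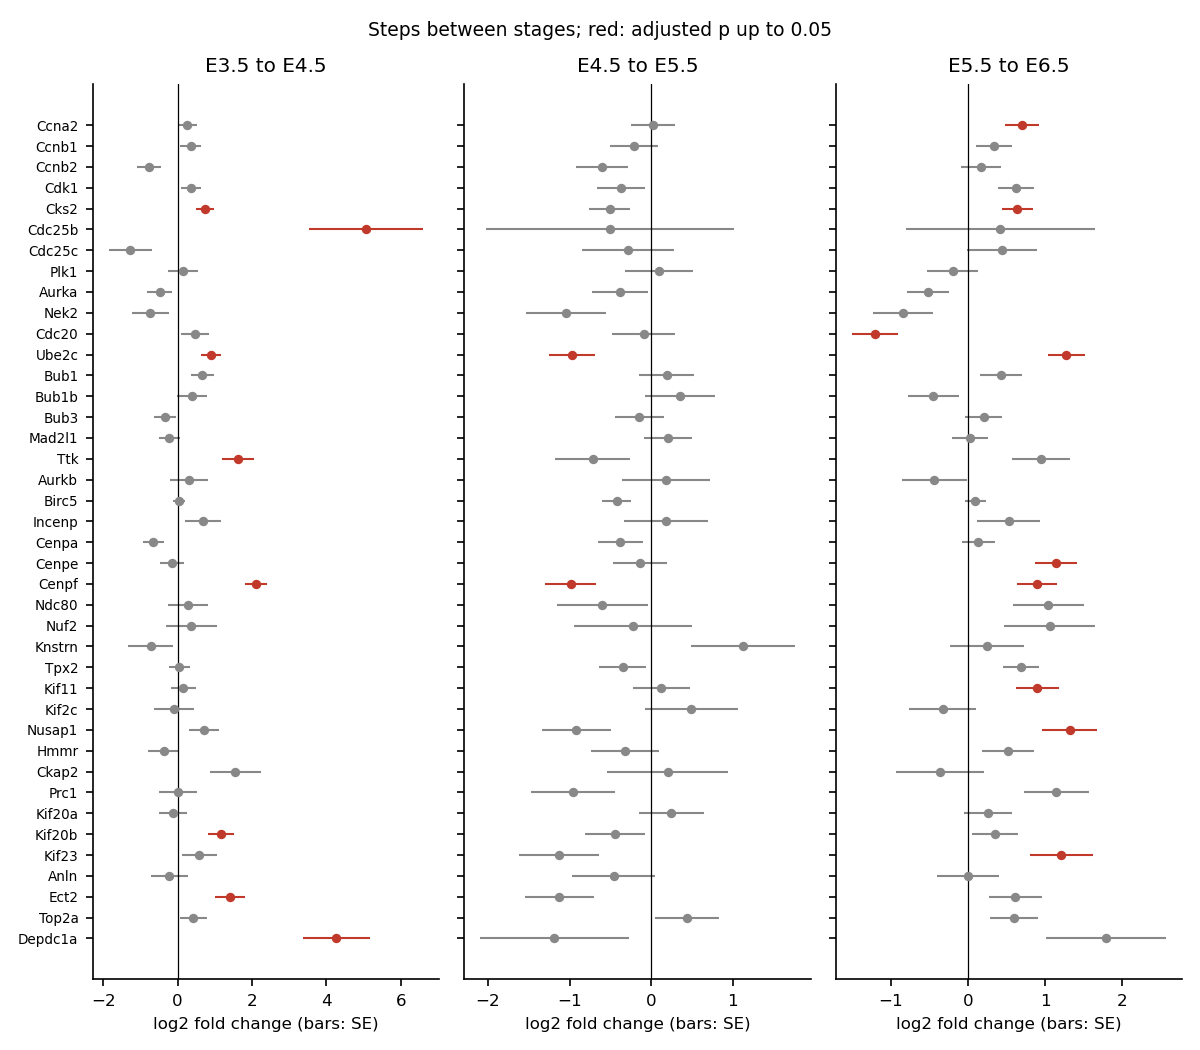
Log2 fold change (x axis) of each mitosis gene with SE bars in the 3 steps between stages, each panel with its own axis. Red points passed at an adjusted p of up to 0.05, 8 at the first step, 2 at the second (Ube2c and Cenpf, lower) and 9 at the third (8 higher and Cdc20 lower).

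Levels between genes are compared per kilobase of exon, as plain CPM of the sums divided by the exon length of the gene model. Cks2, a short transcript, was the highest of the 40 at all 4 stages, with 419 ± 115.2, 686 ± 151.8, 475 ± 78.6 and 723 ± 261.99 CPM per kilobase from the earliest to the latest (SD over embryos). At E3.5 it was followed by Cdc20 (181.8 ± 127.3), Ccnb2 (151.5 ± 53.7), Aurka (132.6 ± 63.9) and Birc5 (124.7 ± 17.8), which did not differ beyond their spread. At E6.5 it was followed by Ube2c (223.3 ± 80.1), Ccnb1 (117.55 ± 44.2) and Ccna2 (104.8 ± 38.3), while Cdc20 stood at 96.9 ± 38.7 and Aurka at 49.2 ± 25.6. Nek2 went from 25.9 ± 14.1 at E3.5 through 15.4 and 7.39 to 4.08 ± 2.23 at E6.5. Cdc25b was the lowest at E3.5, at 0.053 ± 0.17.

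At E4.5 the mean levels of the mitosis genes in the 2 lineages differed by less than their spread. PrE-like cells stood at 5.95 ± 0.36 and epiblast-like cells at 5.90 ± 0.49 (n = 5 each), and within embryos the difference was 0.05 ± 0.25 (SD), higher in 3 of 5. The mean over S phase genes, by contrast, was lower in PrE-like cells in 5 of 5 embryos (5.90 against 6.53). 0 of the 40 genes were called by edgeR's quasi-likelihood test between these sums, while 15.5% of 10119 genes were (8.52% higher and 7% lower). At an unadjusted p under 0.05 there were 4 members and 2879 genes. DESeq2 called 3 members, and its share over all genes is not given. The median log2 fold change was 0.06 over the 40 and 0.08 over all genes.

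Hmmr, Kif23 and Kif11, named after their values were seen, came nearest to a call. Kif23 held 159.6, 161.4, 152.7, 104.03 and 173.7 CPM in PrE-like sums and 57.5, 130.3, 57.3, 68.6 and 105.4 in epiblast-like sums, and was higher in 5 of 5 embryos. Hmmr, a microtubule-binding partner of Tpx2, held 139.7, 160.1, 141.7, 127.8 and 285 CPM against 144.97, 44.8, 62.1, 67.9 and 101.6, higher in 4 of 5. With the embryo as a block, both were called higher, Hmmr at 1.08 ± 0.30 (edgeR's quasi-likelihood test, adjusted p = 0.0356) and Kif23 at 0.90 ± 0.26 (adjusted p = 0.0428), where the fit without it gave adjusted p of 0.0608 and 0.0665. Kif11 stood at 0.85 ± 0.30 (adjusted p = 0.0703 without the block). Without embryo 1 of plate P1, which held the highest epiblast-like Hmmr value, Hmmr alone was called. Cenpf was lower in PrE-like cells in 5 of 5 embryos, by 0.54 ± 0.24 (adjusted p = 0.156).

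For the other named genes the PrE-like minus epiblast-like value was 0.43 ± 0.23 for Ccnb1, 0.06 ± 0.20 for Cdk1, 0.30 ± 0.45 for Plk1, -0.23 ± 0.40 for Cdc20, 0.21 ± 0.24 for Aurka, 0.03 ± 0.56 for Bub1b and 0.03 ± 0.16 for Birc5. Cenpe, Top2a, Kif20a and Ccna2 stood at 0.26, 0.28, -0.05 and -0.02, and Knstrn at 1.45 ± 0.68. Knstrn was higher in PrE-like cells in 5 of 5 embryos, with 0.606 CPM (1 count) in the lowest epiblast-like and 115.03 CPM in the highest PrE-like sum.

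At E6.5 the endoderm-like cells stood lower in the mean, at 5.60 ± 0.31 (n = 8). Within the 8 embryos with both classes the difference from epiblast-like cells was -0.44 ± 0.48, lower in 6 of 8, while the mean of all genes differed by -0.0031. The S phase mean was lower in 7 of 8. 1 of the 40 genes was called lower (2.5%) and 0 higher, against 4.39% and 6.7% of 10314 genes. The median log2 fold change was -0.09 over the 40 and -0.02 over all genes.

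The called gene was Plk1, the polo-like kinase that acts from mitotic entry to cytokinesis. Its endoderm-like sums ranged from 13.3 to 104.5 CPM with a median of 28.99, and its epiblast-like sums from 30.4 to 162.2 with a median of 108.09. It was lower in endoderm-like cells in 8 of 8 embryos, and the ranges overlapped. The log2 fold change was -1.34 ± 0.38 (edgeR's quasi-likelihood test, adjusted p = 0.0202), and -1.70 with the embryo as a block (adjusted p = 0.0378). Within batches it was -1.64 on plates P1 to P3 (adjusted p = 0.0751) and -1.11 without a plate name (adjusted p = 0.128), and the call was also lost without embryo 1 titled E6.75.

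Ccnb1 stood at -0.12 ± 0.25, Cdk1 at 0.01 ± 0.23, Cdc20 at -0.23 ± 0.31, Aurka at -0.03 ± 0.36, Bub1b at 0.20 ± 0.36 and Birc5 at 0.28 ± 0.16. Cenpe, Top2a, Kif20a, Ccna2 and Knstrn stood at 0.38, -0.12, -0.17, 0.04 and -0.09. Nusap1, named after its value was seen, was lower in 7 of 8 embryos (-0.76 ± 0.33, adjusted p = 0.145).

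Some wells were titled double, for a pair of cells seen in 1 well by eye during picking, and held 66 of the E5.5 epiblast-like and 30 of the E4.5 PrE-like cells. At E5.5 the mean level of the mitosis genes was 5.74 ± 0.41 in double wells (n = 6) and 5.26 ± 0.20 in single wells (n = 8). Within the 6 embryos with both it was 0.49 ± 0.40 higher in double wells, in 5 of 6. The mean of all genes tested was 0.40 higher in 6 of 6, and more genes were detected (median 7476 against 6334). As a share of counts the mitosis genes took 0.560% in double and 0.578% in single wells of these embryos, lower in 3 of 6. In the sums, edgeR's quasi-likelihood test called 0 of the 40 genes, and 0 of 11530 genes (0%). At an unadjusted p under 0.05 there were 1 member (Bub1b, 0.49 ± 0.21) and 357 genes, and DESeq2 called 0 members.

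The median log2 fold change over the 40 was -0.09 in double against single wells at E5.5, with 25 of 40 negative and a median SE of 0.23. The 95% interval was -0.35 to 0.29 for Ccnb1, -0.60 to 0.14 for Cdk1, -0.26 to 0.63 for Plk1, -0.35 to 0.43 for Cdc20 and -0.26 to 0.31 for Top2a. For Aurka, Birc5, Cenpe, Kif20a, Ccna2 and Knstrn the log2 fold changes were -0.03, -0.15, -0.10, 0.33, -0.15 and 0.03. At E4.5, in PrE-like cells, the mean was 5.95 ± 0.50 in double (n = 4) and 5.97 ± 0.33 in single wells (n = 5). Of 39 members tested there (Cdc25b was below the count filter) 0 were called, as were 0 of 9968 genes (0%), and 0 members had an unadjusted p under 0.05. DESeq2 called 0 members there too. Ccnb1, Cdk1, Plk1, Cdc20, Aurka, Bub1b, Birc5, Cenpe, Top2a, Kif20a, Ccna2 and Knstrn had log2 fold changes of 0.05, -0.05, -0.60, -0.33, 0.05, -0.28, -0.0044, 0.04, -0.10, -0.19, -0.08 and 0.25. The median log2 fold change over these members was -0.11. Ttk, named after its value was seen, was the gene whose ranges did not overlap. It held 12.9 to 26.9 CPM in double and 28.1 to 117.7 in single wells (-1.09 ± 0.54, edgeR's quasi-likelihood test, adjusted p = 0.999). The share of all genes with separate ranges in these wells is not given.

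T (Brachyury) marks cells of the primitive streak. Outside the endoderm-like and unnamed clusters, 54 E6.5 cells were T-positive (at least 10 CPM of T) and the rest T-negative, and 4 embryos had enough T-positive cells for a sum. 1 of these 4 sums held the 23 streak-like cells. The mean level of the mitosis genes was 6.39 ± 0.34 in T-positive (n = 4) and 5.90 ± 0.41 in T-negative cells (n = 13). 3 of the 4 T-positive sums came from embryos without a plate name, among them both titled E6.75. The mean level of embryos without a plate name was higher. Within the 4 embryos the difference of T-positive from T-negative cells was 0.19 ± 0.47, higher in 2 of 4. The members' share of counts was higher in T-positive cells in 4 of 4 embryos (0.774% against 0.695%).

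In the sums edgeR's quasi-likelihood test called 0 of the 40 genes between T-positive and T-negative cells, and 3 of 11802 genes (0.0254%), which were T itself, Mesp1 and 5730457N03Rik. At an unadjusted p under 0.05 there were 3 members and 279 genes, and DESeq2 called 0 members. Plk1 was higher in T-positive cells in 4 of 4 embryos, at 294, 145.02, 138.99 and 122.6 CPM against 167.6, 99.4, 116.4 and 102.6 in T-negative cells of the same embryos (0.69 ± 0.32, adjusted p = 0.999). Bub1 and Ttk, named after their values were seen, were lower in 4 of 4 embryos without a call, at -0.83 ± 0.35 and -0.89 ± 0.43 (adjusted p = 0.999 for both), while Bub1b and Bub3 of the same checkpoint were higher in 3 of 4. Over the 40 genes the median was -0.08 and the median SE 0.36.

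For the other named genes the T-positive minus T-negative value was 0.28 ± 0.26 for Ccnb1, -0.08 ± 0.26 for Cdk1, 0.45 ± 0.37 for Cdc20, -0.03 ± 0.39 for Aurka and 0.58 ± 0.36 for Bub1b. Birc5, Cenpe, Top2a, Kif20a, Ccna2 and Knstrn stood at -0.08, -0.41, -0.30, 0.19, 0.07 and -0.19. No other mitosis gene and no S phase gene was called in the well or T comparisons, of 86 and 29 tested (at most 4 and 3 at an unadjusted p under 0.05, against 357 of all genes at most).

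**Figure D4:**
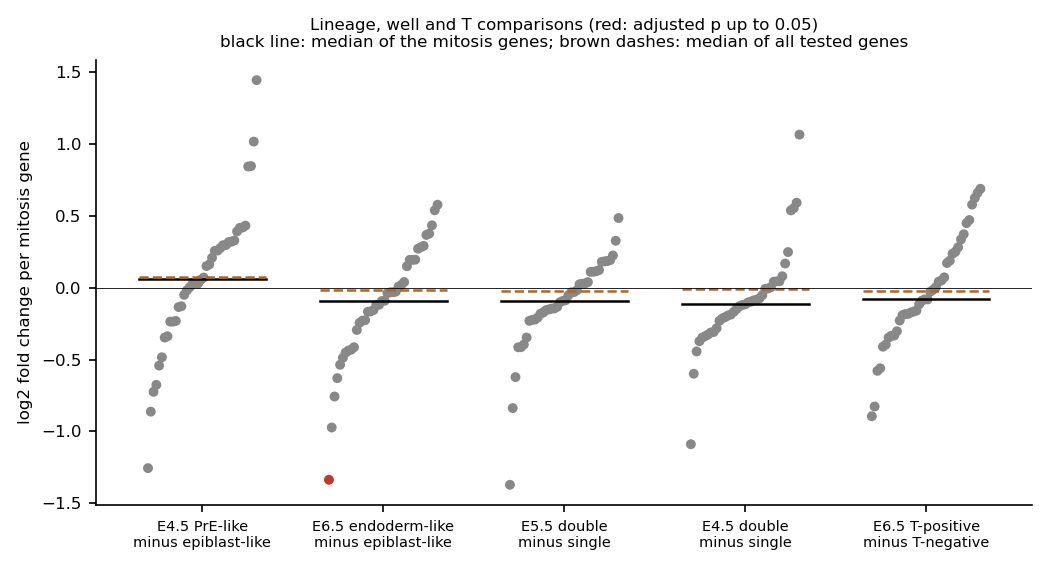
Log2 fold change of each mitosis gene (points, sorted) in the comparisons of lineages, wells and T classes, with the median of the mitosis genes (black line) and of all tested genes (brown dashes). The medians lie between -0.11 and 0.08, and the single red point is Plk1 in E6.5 endoderm-like cells, at -1.34.

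From cell to cell the mitosis genes differed in how steady they were. At E5.5 Ccnb1, Cks2 and Birc5 had counts in 100% of the 260 epiblast-like cells, Top2a in 99.2%, Depdc1a in 24.6% and Cdc25b in 11.5%. The SD over cells of log2(CPM + 1), with embryo means removed, was smallest for Birc5 (0.63) and Cks2 (0.81) and largest for Aurkb (3.00) and Prc1 (2.91). For the mean over the 40 genes the SD over cells of an embryo averaged 0.82 at E3.5 and E5.5, 0.63 in E6.5 epiblast-like and 0.27 in the 23 streak-like cells. Single E6.5 epiblast-like embryos ranged from 0.33 to 1.18. The streak-like value is that of 1 embryo without a plate name. A median of 9632 genes was detected in its streak-like cells, against 6781.5 in E6.5 epiblast-like cells. The part of gene detection in this SD was not tested. The depth of a cell moved with this mean only weakly, with r of -0.25 over the E5.5 cells and -0.27 over the E6.5 epiblast-like cells.

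Between cells of an embryo most pairs of the genes were weakly and positively related. Over the E5.5 epiblast-like cells titled single, 9 to 43 in each of 8 embryos, with embryo means removed, the 780 pairs of members had a median Pearson's r of 0.11 (quartiles 0.05 and 0.19), and 44 pairs exceeded 0.3. The closest pairs were Aurka with Prc1 (0.43) and Cenpf with Top2a (0.43). Over all 260 cells, the genes that followed the mean of the other 39 most closely were Ube2c (0.56), Nusap1 (0.52), Prc1 (0.51) and Cenpf (0.50), and those that followed it least were Mad2l1 (0.02), Birc5 (0.10) and Ccnb2 (0.11). Ube2c and Nusap1 also led at E3.5, with 0.54 each. These cells share libraries and depth, and such values are a description.

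Among 9025 genes counted in at least 20% of these single-titled cells, the median r with the mean of the mitosis genes was 0.08. It was 0.17 for the other mitosis genes and -0.08 for the S phase genes, and the S phase mean itself had r of -0.17. Genes outside the 40 with the highest r included Arl6ip1 (0.51), Tuba1c (0.46), Cdca2 (0.46), Gm10184 (0.43), Fzr1 (0.43), Miip (0.41), Sgol1 (0.41), Hn1 (0.41) and Tubb4b (0.41). In 46 E4.5 PrE-like cells titled single, r ranged among these genes from 0.32 for Gm10184 to 0.63 for Tubb4b, and in 87 E3.5 cells from 0.08 for Sgol1 to 0.51 for Tubb4b. In E6.5 epiblast-like cells titled single (12 embryos with 3 to 52 cells each) r ranged from 0.09 for Sgol1 to 0.38 for Arl6ip1.

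**Figure D5:**
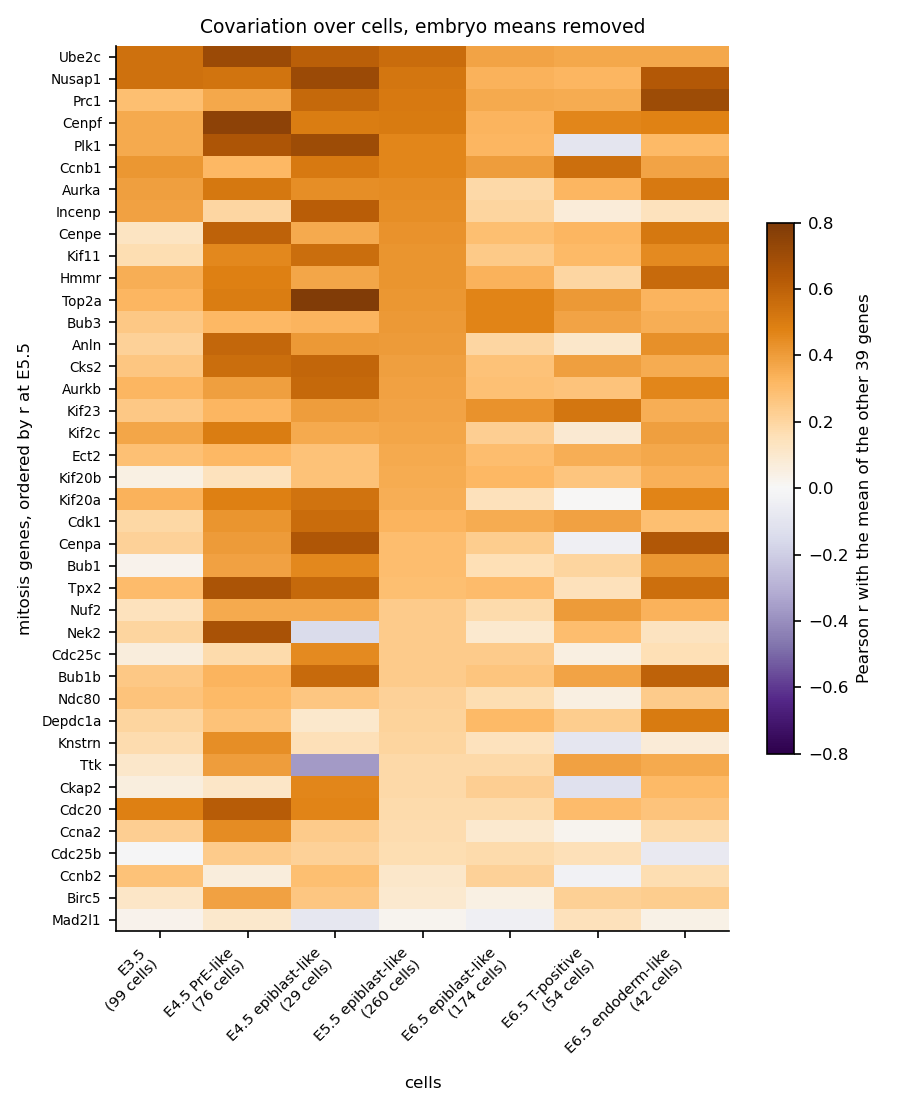
Pearson's r of each mitosis gene with the mean of the other 39 over cells, embryo means removed, by class of cells, with genes ordered by r at E5.5. Ube2c, Nusap1, Prc1 and Cenpf are at the top with 0.50 to 0.56 at E5.5, and Mad2l1 is at the bottom with 0.02.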

How the data were processed

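Single cells had been picked by hand, and their mRNA was captured on beads and amplified as in G&T-seq, a method for reading DNA and RNA of the same cell. The authors trimmed the reads with Trim Galore 0.4.3 and aligned them with HISAT2 2.0.5 to GRCm38, as their processing notes give it, removed alignments of low mapping quality, counted with SeqMonk, and deposited raw counts per gene and cell, after removing cells with few genes or many mitochondrial reads. By the paper, cells expressing trophoblast markers were also left out. Wells were titled single or double by eye, and no doublet caller was run.

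Counts were summed per embryo and class and tested with edgeR 4.0.16 (R 4.3.3; TMM, filterByExpr, quasi-likelihood test) over all genes, with Benjamini-Hochberg adjustment. The SE was taken as the absolute log2 fold change over the square root of F. The 4 stages shared 1 fit, and each other comparison had its own. The embryo was the unit of replication, from the titles. Classes of E6.5 cells on T used a minimum of 10 CPM. Pseudocounts of 1 were used on log scales. The scripts were tested on simulated data. The same embryo gave both sums in the lineage, well and T comparisons, so these are paired by animal, and the median correlation of paired deviations was 0.0508, 0.0785, 0.0512, 0.133 and 0.144 for the E4.5 and E6.5 lineages, the E5.5 and E4.5 wells and the T classes.

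The members and the gene lists were chosen with earlier results of these data known. Named are, per comparison, the up to 8 called members with the largest change, 12 members fixed throughout (Ccnb1, Cdk1, Plk1, Cdc20, Aurka, Bub1b, Birc5, Cenpe, Top2a, Kif20a, Ccna2 and Knstrn), and the 10 other genes with the highest correlation, of which 1 is not reported here. Alternatives were DESeq2 1.42.0, other normalization, filters, fold limit, cells per sum, thinning, lineages, wells, batches, a block for the embryo and leaving out each embryo.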

Additional observations from a re-analysis of the deposited data

Results flagged for a closer look

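Among the groups of 4 to 10 embryos checked for the named genes, 13 (12.4% of the groups) held an embryo far from all others by Dixon's test, which flags about 1 group in 20 by chance. All values are CPM. At E3.5, Cdc25b was at 2.03 in embryo 9 of plate P9 and at 0 in the other 9 sums, and Cenpe was at 209.5 in the sum of cells without an embryo number, against 47.8 to 121.8. In the E4.5 epiblast, embryo 5 of plate P2 had a low Birc5 (353 against 434 to 456) and a high Ect2 (244.4 against 97.9 to 124.2), and embryo 4 of plate P2 a low Cenpf (196.15 against 305 to 349). In the E5.5 epiblast, Birc5 was at 464 in embryo 3 of plates P7, P4 and P5 (others 238.1 to 342), and embryo 1 of plates P2 and P3 had a high Knstrn (78.6 against 29.2 to 48.6) and a high Depdc1a (15.2 against 0.312 to 5.57).

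In E4.5 PrE-like cells, embryo 1 of plate P1 held 3 of the 13 values, with Cdc20 at 789 (others 230.03 to 384), Knstrn at 115.03 (34.7 to 48.3) and Kif20a at 205.8 (86.1 to 115.03). In E6.5 endoderm-like cells, Cdk1 was at 848.5 in embryo 8 of plate P3 (231.9 to 441) and Aurka at 314 in embryo 6 of plate P2 (32.1 to 154.9).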

How the results depend on the processing

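Of 19 called values of named members, none turned its sign under 556 settings (0 reversed), 478 kept the call and 78 lost it. Of 92 uncalled values of the 12 members fixed throughout, 7 of 2083 settings gave a call and 0 of these 7 the opposite sign. Uncalled values of the other members are not in this count. Among those, Tpx2 and Prc1 were called in several settings from E5.5 to E6.5, and Hmmr and Kif23 in some between the E4.5 lineages. From E3.5 to E4.5 the 8 calls became 7 to 9 when 1 embryo was left out, beside the changes given above. From E4.5 to E5.5 the 2 calls became 1 without a filter on low counts, 0 with a log2 fold limit of 1, 1 without the E6.75 embryos, and 0 to 2 when 1 embryo was left out. From E5.5 to E6.5 the 9 calls became 14 with DESeq2, 5 with the fold limit, 15 with at least 5 cells per sum, 1 with E6.5 embryos without a plate name only, and 5 to 9 when 1 embryo was left out, and the mean level then differed by 0.92 without a plate name, against 0.51. For E4.5 PrE-like against epiblast-like cells the 0 calls became 3 with DESeq2, 1 with at least 5 cells, 2 with the embryo as a replicate block and 0 to 1 when 1 embryo was left out. For E6.5 endoderm-like cells the 1 call became 0 with at least 5 cells, at least 1 cell, lineages from marker levels, plates P1 to P3 only or no plate name only, and 0 to 1 when 1 embryo was left out. The block changed no other count. The share of all genes called under each of these settings is not given, here or above, so these counts of members have no background. The cause of these changes was not tested. Fits restricted to batches, and those without the E6.75 embryos, were for the earlier steps and the mean level chosen after seeing the data. Few cells per sum (3 in the smallest) and a median SE of 0.23 to 0.41 limit what could be seen.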

Other observations

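The 11 unnamed E6.5 cells had a mean level of the mitosis genes of 4.72 ± 0.03 (SD over 2 embryos with at least 3 cells), and the mean over all genes was 2.06. The 7 endoderm-like E5.5 cells had 4.55 in the 1 embryo with at least 3 of them, with 2.18 over all genes. The 23 streak-like cells of 1 E6.5 embryo stood at 6.65, with 3.67 over all genes.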
